A study of Homo sapiens with 4 samples.

Results

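Of 6 genes chosen by name because they write, maintain or erase CpG methylation (DNMT1, DNMT3A, DNMT3B, DNMT3L, UHRF1 and TET1), 5 have a row among the 16174 genes of the deposited table, and DNMT3L is not analysed here. The levels come from nanopore cDNA libraries of H9, a widely used human embryonic stem cell line kept in the primed state. All cells carried a piggyBac construct with a doxycycline-inducible dCas9-BFP-KRAB (a Cas9 that binds but does not cut, joined to the KRAB repressor), were selected with puromycin and received doxycycline. They differed in the guides, which were 4 pooled guides against the long non-coding RNA gene SNHG26 or control guides without a target, and in the time on doxycycline, 2 or 3 days. Each combination of guides and day was sequenced once, which leaves 2 libraries per arm, of different days. The labels do not say that the libraries came from separate cultures, so p-values measure only the spread between these libraries, which may be technical. In the test of the guides, the spread within an arm also includes any difference between the days.

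Methylation of cytosine in CpG dinucleotides is laid down on unmethylated DNA by the de novo methyltransferases DNMT3A and DNMT3B, for which the catalytically inactive DNMT3L is a cofactor. After replication it is copied to the new strand by DNMT1, which UHRF1 recruits by binding hemimethylated CpG. TET1 oxidizes methylcytosine, which leads to its passive or active loss. Primed human embryonic stem cells have a highly methylated genome, and DNMT3B is a common marker of that state.

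The values are TPM, which is reads per length, scaled to a fixed total in each library. In this table the length is the genomic distance from start to end with introns, so what 1 read is worth depends on the transcript it was assigned to. The promoter windows below show the starts of 2 genes at the ends of this range. The values of TET1 were whole numbers of reads on its listed span, which begins at the start shown. DNMT3A has 6 RefSeq windows, of which 2 are shown, a distal start (first) and an internal start (second). Their spans to the far end of the gene are 114736 and 24461 bases. A read on the longer span was worth from 0.0569 to 0.07 TPM, and on the shorter from 0.267 to 0.328 TPM. Each window is the 250 bases before a RefSeq start on GRCh38.p14, 5′ to 3′ on the strand of the gene, with each CpG in capitals.

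DNMT3A, distal start, minus strand, chr2:25342591-25342840: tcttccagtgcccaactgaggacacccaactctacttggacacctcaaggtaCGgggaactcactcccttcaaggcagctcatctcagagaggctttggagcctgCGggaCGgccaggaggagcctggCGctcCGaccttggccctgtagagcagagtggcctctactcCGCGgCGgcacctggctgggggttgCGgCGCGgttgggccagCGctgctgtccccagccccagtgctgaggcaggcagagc

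DNMT3A, internal start, minus strand, chr2:25252316-25252565: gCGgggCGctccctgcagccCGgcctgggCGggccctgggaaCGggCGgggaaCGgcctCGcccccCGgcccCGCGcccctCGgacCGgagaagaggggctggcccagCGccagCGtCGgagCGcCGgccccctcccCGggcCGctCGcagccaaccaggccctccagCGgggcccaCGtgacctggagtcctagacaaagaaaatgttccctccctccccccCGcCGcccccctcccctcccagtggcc

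TET1, plus strand, chr10:68560087-68560336: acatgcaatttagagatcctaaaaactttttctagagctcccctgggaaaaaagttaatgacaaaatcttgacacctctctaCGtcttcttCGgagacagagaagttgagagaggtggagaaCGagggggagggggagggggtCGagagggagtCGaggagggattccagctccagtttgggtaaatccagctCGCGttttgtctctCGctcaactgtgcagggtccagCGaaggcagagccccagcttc

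The distal DNMT3A window held 12 CpG and the internal one 25, against 9 in the TET1 window and a median of 11 over 35114 RefSeq windows of the same length. At least as many CpG as in the internal DNMT3A window were found in 21.6% of all windows. The corresponding share was 48.5% for the distal window and 54.1% for the TET1 window. The letters searched were CG, which reads the same on both strands, and 93.9% of all windows held at least 1. The table gives 1 value per gene, so which DNMT3A start the reads came from was not measured here.

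Of 10 pluripotency markers 9 had a row, with summed levels from 1710 to 1934 TPM, most of it POU5F1 at 1050 to 1212 TPM. The lowest of them was LIN28B, at 0.503 to 1.20 TPM. Of the 8 markers that averaged 1 TPM or more, 3 were lower with the SNHG26 guides on both days and 2 higher. Among all genes at that level the shares were 21.8% and 24.8%. DPPA4 was among the lower ones, at 210 and 183 against 315 and 266 TPM with control guides. Its log2 change was -0.56, with a limma adjusted p of 0.935 (unadjusted 0.0395). ZFP42 went the other way, at 71.5 and 68.3 against 62.4 and 50.7 TPM. All 6 primed markers had a row, with summed levels from 340 to 377 TPM, but ZIC2 was listed at 0 TPM in every library. None of the 4 neuroectoderm markers had a row. Of the 6 mesendoderm and 5 amnion or trophectoderm markers, 4 had a row. They were listed at 0 TPM in every library, except MIXL1 at 1.98 TPM in the control library of day 3. That value corresponds to at most 1.01 reads. Of 6 fibroblast markers 3 had a row, with summed levels from 65.1 to 96.3 TPM, most of it THY1, which embryonic stem cells also carry. The collagen gene COL1A2 was listed at 3.79 and 5.01 TPM with the SNHG26 guides and at 7.47 and 7.72 TPM with control guides. These values correspond to at most 18.9 to 41.8 reads. COL1A1 ranged from 2.98 to 4.21 TPM. Whether the collagen reads came from fibroblasts was not tested. Of 9 naive markers 5 had a row, with summed levels from 10.9 to 18.4 TPM. SNHG26 itself was listed at 0 TPM on day 2 and 0.933 TPM on day 3 with its guides and at 2.98 and 4.03 TPM with control guides, in the direction of the labels. Its log2 change of -1.69 (SE 0.58) had a limma adjusted p of 0.935 (unadjusted 0.0417). The reads behind the SNHG26 values were not computed, so they may be few.

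Averaged over the 4 libraries, DNMT3A had the highest level of the 5 genes, 11.7 ± 3.03 TPM (SD, n = 4), followed by DNMT3B at 7.07 ± 3.5, DNMT1 at 5.80 ± 1.13, TET1 at 1.17 ± 0.221 and UHRF1 at 0.272 ± 0.15 TPM. These levels are per genomic span and compare genes only on that scale. DNMT3A lay above the other 4 genes in each library. DNMT3B and DNMT1 did not differ beyond their spread. DNMT3B was the higher of the pair in both day 2 libraries and DNMT1 in both day 3 libraries. On this scale TET1 lay below the 3 methyltransferases and above UHRF1 in every library, with no overlap. The order can differ in reads, since the listed span of TET1 is the longest of the 5 genes. In the SNHG26 library of day 3, TET1 had 25 reads and DNMT3B between 14.3 and 22.8. DNMT3B had more reads than TET1 in the other libraries. The tests were run on the 8274 genes that averaged 1 TPM or more. Among them DNMT3A ranked 2810, DNMT3B 3666, DNMT1 4067 and TET1 7859, and UHRF1 fell below the filter.

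**Figure D1:**
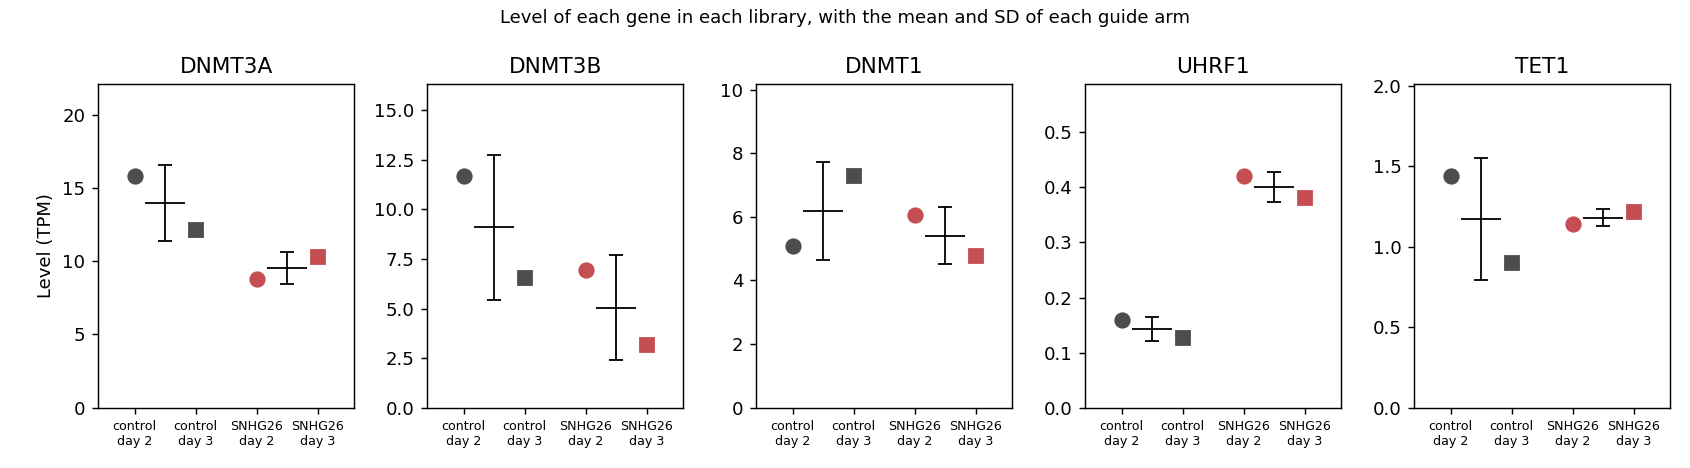
TPM of DNMT3A, DNMT3B, DNMT1, UHRF1 and TET1 in each library (grey, control guides; red, SNHG26 guides; circles, day 2; squares, day 3), with the mean and SD of each arm (n = 2) as black bars. The arms do not overlap for DNMT3A and UHRF1, and the day 2 libraries lie above the day 3 libraries for DNMT3B.

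DNMT3A (minus strand, chromosome 2, 25227855 to 25342590) stood at 8.76 and 10.3 TPM on day 2 and day 3 with the SNHG26 guides and at 15.8 and 12.1 TPM with control guides. Both SNHG26 libraries lay below both control libraries. The ratio of the arms was 0.555 on day 2 and 0.852 on day 3. The arm means were 9.54 ± 1.10 and 14.0 ± 2.60 TPM (SD, n = 2). On log2(TPM + 1) the change was -0.50 (SE 0.31, 95% interval from -1.35 to 0.35), with a limma adjusted p of 0.935 (unadjusted 0.182). Exchanging libraries between the arms in an exact permutation test (two-sided) gave p = 0.333, which is also the lowest value possible with 2 libraries on each side. In RNA from bulk cells, fewer expressing cells and less RNA per cell cannot be told apart. Arms that do not overlap, lower with the SNHG26 guides, were found in 13.2% of the 8274 genes. DNMT3A was the only one of the 4 tested genes of this group with that pattern.

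The depth behind the DNMT3A values is not known. On the full listed span they correspond to at most 138, 181, 226 and 207 reads in the SNHG26 libraries of day 2 and day 3 and the control libraries of day 2 and day 3. GENCODE release 29 also lists 15 transcripts of DNMT3A, the shortest spanning 893 bases, on which 1 read is worth from 7.31 to 9.0 TPM. That is more than the difference between the arm means. Whether the difference rests on few reads of short transcripts was not tested.

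DNMT3B (plus strand, chromosome 20, 32762385 to 32809359) was listed at 6.92 and 3.17 TPM with the SNHG26 guides and at 11.7 and 6.52 TPM with control guides. Each SNHG26 library lay below the control library of its day, at a ratio of 0.593 on day 2 and 0.485 on day 3, but the arms overlapped, since day 2 of the SNHG26 arm lay above day 3 of the control arm. The arm means were 5.04 ± 2.65 and 9.10 ± 3.64 TPM (SD, n = 2), a log2 change of -0.76 (SE 0.51, 95% interval from -2.17 to 0.64) with a limma adjusted p of 0.935 (unadjusted 0.207). With the day fitted as a block, the same change had an unadjusted limma p of 0.0930 and an adjusted p of 0.908. Lower values with the SNHG26 guides on both days, as in DNMT3A and DNMT3B, were found in 21.8% of the genes tested.

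DNMT3B had the largest change between the days among the tested genes of this group. The level on day 3 was 0.458 of that on day 2 in the SNHG26 arm and 0.559 in the control arm. The day means were 9.30 ± 3.36 and 4.84 ± 2.37 TPM (SD, n = 2), and the days did not overlap. The log2 change from day 2 to day 3 was -0.84 (SE 0.47, 95% interval from -2.15 to 0.47), with a limma adjusted p of 0.760 (unadjusted 0.148). Days that do not overlap, with lower values on day 3, were found in 18.4% of the genes tested, and lower values on day 3 in both arms in 24.8%. The 6 GENCODE transcripts of DNMT3B span from 29505 to 46972 bases, so its depth is bounded more closely than that of DNMT3A. Between 28.0 and 44.6 reads lay behind the SNHG26 library of day 2, between 14.3 and 22.8 behind that of day 3, between 42.9 and 68.2 behind the control library of day 2 and between 28.7 and 45.6 behind that of day 3. Counting error alone is then at least 15.0%, 21.0%, 12.1% and 14.8% of these values.

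Within a library, DNMT3B stood at 0.790 of the DNMT3A level on day 2 and 0.307 on day 3 in the SNHG26 arm, and at 0.739 and 0.538 in the control arm. The ratio was lower on day 3 in both arms. The summed level of the 2 de novo enzymes was 2.59 and 2.83 times that of DNMT1 in the SNHG26 libraries of day 2 and day 3, and 5.39 and 2.56 times in the control libraries. Only the control library of day 2 stood apart. These ratios were chosen after the values were seen and have no test.

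DNMT1 (minus strand, chromosome 19, 10133342 to 10231286), the maintenance methyltransferase, was listed at 6.05 and 4.77 TPM with the SNHG26 guides and at 5.10 and 7.28 TPM with control guides. The SNHG26 value was the higher on day 2 and the lower on day 3, with log2 changes of 0.21 and -0.52. The mean change was -0.16 (SE 0.36, 95% interval from -1.13 to 0.82), with a limma adjusted p of 0.998. From day 2 to day 3 the log2 change was 0.08 (SE 0.33), with a limma adjusted p of 0.971. The values correspond to at most 81.3, 71.5, 62.1 and 106 reads on the listed span (SNHG26 day 2 and day 3, then control day 2 and day 3). GENCODE lists 28 transcripts, the longest of 61790 bases against 97945 listed, so reads on any of them would be fewer. The shortest is of 758 bases, on which 1 read is worth at least 8.62 TPM, more than any of the 4 levels. The listed span also overlaps S1PR2 on the same strand, which was listed at 0 TPM in every library.

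UHRF1 (plus strand, chromosome 19, 4903080 to 4962154), the partner that brings DNMT1 to hemimethylated CpG, was listed at 0.420 and 0.381 TPM with the SNHG26 guides and at 0.159 and 0.127 TPM with control guides. The arms did not overlap, with the SNHG26 libraries above. In numbers of reads this was 3 and 3 against 1 and 1. Each value equalled a sum of single reads over GENCODE transcript spans in only 1 way. The control read of day 2 matched a span of 50578 bases with its start at 4910375, and that of day 3 a span of 52721 bases with its start at 4909430. Scaled for depth, the 6 reads against 2 gave a ratio of 2.83, with an exact 95% interval from 0.505 to 28.6 that covers counting error only. With the filter dropped, so that UHRF1 could be tested, the log2(TPM + 1) change was 0.29 (SE 0.13, 95% interval from -0.08 to 0.67), with a limma adjusted p of 0.873 (unadjusted 0.0947). With a pseudocount of 0.1 it was 1.04, and with 5 it was 0.07. Among the 5566 genes with a mean above 0 and under 1 TPM, 10.3% had arms that did not overlap with the SNHG26 arm higher.

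TET1 (plus strand, chromosome 10, 68560337 to 68694487), the oxidase, was the one gene of the 5 whose values came out as whole reads on the listed span in all 4 libraries. It had 21 and 25 reads with the SNHG26 guides and 24 and 18 reads with control guides on day 2 and day 3, which is 1.14 and 1.22 TPM against 1.44 and 0.901 TPM. The control values lay on either side of the SNHG26 values. The arms differed by a factor of 1.03 in reads scaled for depth (46 against 42 reads, exact 95% interval from 0.664 to 1.61, counting error only). The limma change was 0.02 (SE 0.52, 95% interval from -1.41 to 1.45) with an adjusted p of 0.998, and its sign depended on the scaling, with -0.0021 under median ratio scaling. Between the days the factor was 0.828 (43 against 45 reads, exact 95% interval from 0.532 to 1.29), with a limma log2 change of -0.15 (SE 0.47) and an adjusted p of 0.953. A processed pseudogene inside TET1 on the same strand, COX20P1 (68632371 to 68632727), was listed at 0 TPM except for 18.8 TPM in the control library of day 3. On so short a span a single read is worth many TPM, so this value stands for very few reads. Whether reads of TET1 were counted there was not tested.

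**Figure D2:**
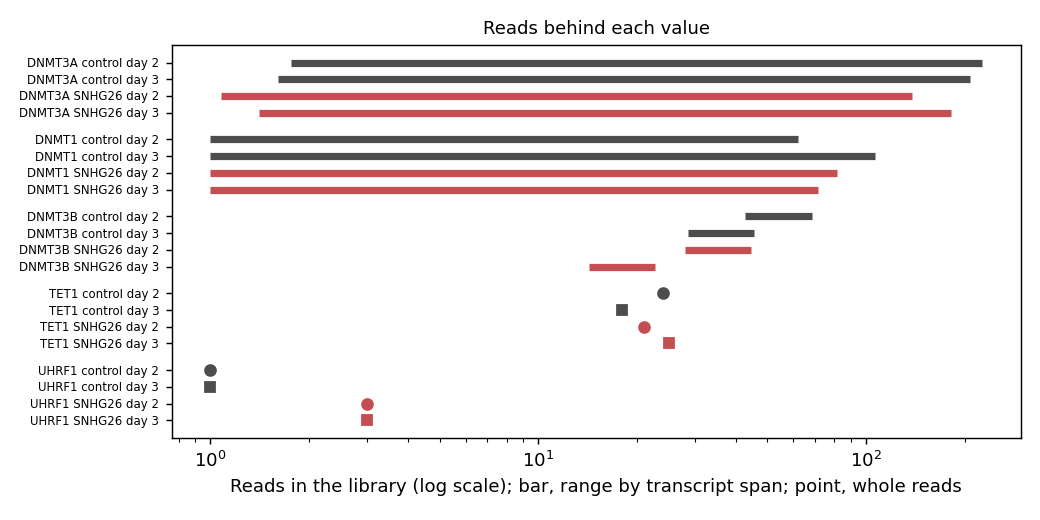
Reads behind each value on a log axis, for each gene and library (grey, control guides; red, SNHG26 guides). Points are whole reads of TET1 (from 18 to 25) and UHRF1 (from 1 to 3), and bars run from the least reads, on the shortest GENCODE transcript span and not under 1, to the most reads, on the listed gene span, for DNMT3A, DNMT1 and DNMT3B.

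Of the 4 genes tested in the main comparison, 0 passed the limma threshold for the guides (adjusted p of 0.05), and 0 reached 0.05 unadjusted. Of all 8274 genes, 0% passed, while 4.07% (337 genes) had an unadjusted limma p below 0.05. The median change of the 4 genes was -0.33, beside 0.04 over the genes tested. Between the days 0 of the 4 passed, against 0.0363% of the table. In the crossed test of whether the guide change differed between day 2 and day 3, 0 of the 4 passed, with adjusted p-values of at least 0.961, against 0.0967% of the table. For DNMT1 and TET1 the sign of the guide change on day 2 was opposite to that on day 3.

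Genes whose pattern over the 4 libraries was most like that of each methyltransferase were found by the largest difference in centred log2(TPM + 1), among 4377 other genes that averaged 5 TPM or more. For DNMT3A these were MRPS23 (0.07) and IPO5 (0.08), for DNMT3B TNNC1 (0.11) and CHCHD2P6 (0.13), and for DNMT1 MRPL30 (0.03) and RPP25L (0.04). With 4 libraries, 13 genes came within 0.1 of DNMT1, 4 of DNMT3A and 0 of DNMT3B.

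The close relatives of these genes were listed below 1 TPM in every library. TET2 was at 0 TPM in all 4 libraries, where 3 reads on its listed span would give from 0.146 to 0.18 TPM. TET3 had 0.053 TPM, at most 1 read, in the SNHG26 library of day 3 and 0 TPM elsewhere. TRDMT1, which resembles the DNMT enzymes and methylates transfer RNA, ranged from 0.322 to 0.729 TPM on at most 3.10 to 6.47 reads. UHRF2, the paralog of UHRF1, was listed at 0.0777 and 0 TPM with the SNHG26 guides and at 0 and 0.843 TPM with control guides. The value of 0.843 TPM corresponds to at most 11.8 reads.

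Partners that maintain or target methylation ranged from 0.23 TPM (UHRF2) to 139 TPM (PCNA) on average. Of 15 on the list, 11 passed the filter and 0 passed the test, with a median guide change of 0.04. PCNA, the replication clamp that holds DNMT1 at the fork, was the highest of them, at 135 and 152 TPM with the SNHG26 guides and 151 and 117 TPM with control guides. On both days 3 of the 11 were higher with the SNHG26 guides (TRIM28, SETDB1 and EHMT2) and 2 lower (USP7 and NSD2), where 24.8% and 21.8% of the genes tested were. Among the partners averaging 5 TPM or more, CDCA7L had the lowest change, -0.21 (SE 0.38). Below that level USP7 (-0.73), NSD2 (-0.75) and DPPA3 (-0.76) were lower.

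EHMT2 encodes G9a, a histone H3 lysine 9 methyltransferase found with DNMT3 enzymes. It was listed at 23.7 and 11.4 TPM with the SNHG26 guides and at 0.448 and 0.401 TPM with control guides. Both SNHG26 libraries lay above both control libraries, as did those of 16.1% of the genes tested. The log2 change was 3.62 (SE 0.48), with a limma unadjusted p of 0.00141 and an adjusted p of 0.273. It was 4.98 with a pseudocount of 0.1 and 2.00 with a pseudocount of 5. The control values correspond to at most 1.00 and 1.07 reads. The SNHG26 values correspond to at most 58.3 and 31.4 reads on the listed span, and to only 2.5 and 1.3 reads on the shortest GENCODE span of 769 bases. The depth therefore does not show how large the difference in reads was.

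Of 8 proteins that read methyl-CpG, 3 passed the filter and 0 passed the test. MBD4, which pairs methyl-CpG binding with a glycosylase, was the highest, at 7.64 and 2.96 TPM with the SNHG26 guides and 3.59 and 4.91 TPM with control guides, and the arms overlapped.

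The list of TET cofactor enzymes and base excision repair genes had 15 of 17 members in the test, with 0 passing and a median change of 0.38. On both days 8 were higher with the SNHG26 guides (UNG, NEIL1, XRCC1, POLB, PARP1, IDH1, IDH2 and GADD45A) and 0 lower, beside 24.8% and 21.8% of all genes tested. IDH1 and IDH2, which make the 2-oxoglutarate that TET enzymes consume, were listed at 137 and 114 against 118 and 67.9 TPM, and at 5.73 and 12.0 against 3.35 and 9.53 TPM (day 2 and day 3 with SNHG26 guides, then with control guides). APEX1, the abasic site nuclease and the highest of the list, stood at 416 and 614 against 475 and 529 TPM. Its change was 0.01 (SE 0.24), and -0.05 with quantile normalization. Among those averaging 5 TPM or more, GADD45A had the highest change at 0.76 (SE 0.46) on at most 4.12 reads, and GADD45B the lowest at -0.39 (SE 0.41) on at most 3.55 reads. Below that level OGT (1.06, SE 0.83) and NEIL1 (2.44, SE 1.13) were higher, each with a limma adjusted p of 0.935. OGT stood at 6.82 and 0.939 TPM with the SNHG26 guides and at 0.780 and 0.963 TPM with control guides. Its change therefore came from the SNHG26 library of day 2. NEIL1 was listed at 0 TPM with control guides and at 0.958 and 14.1 TPM with the SNHG26 guides. These values correspond to at most 1.34 reads on day 2 and to between 1.39 and 21.9 reads on day 3. The depth therefore does not show how large the difference in reads was.

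The methyl donor cycle makes S-adenosylmethionine, the substrate of all DNMT enzymes. Of its 14 genes on the list, 11 were tested and 0 passed, with a median change of 0.43. On both days 5 were higher with the SNHG26 guides (MAT2A, AHCYL1, MTRR, SHMT2 and AMD1) and 0 lower, where the shares of the table were 24.8% and 21.8%. SHMT2, which feeds carbon units from serine into the folate cycle, was at 123 and 102 TPM with the SNHG26 guides and 76.3 and 75.3 TPM with control guides. The arms did not overlap, as in the 16.1% of tested genes with both SNHG26 libraries above both controls. The change of 0.56 (SE 0.21) had a limma adjusted p of 0.935 (unadjusted 0.0542). MAT2A, the synthetase of S-adenosylmethionine, was at 89.9 and 114 against 83.2 and 77.5 TPM. Among those averaging 5 TPM or more, MTHFD1 had the lowest change, -0.33 (SE 0.40).

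S phase genes were set beside DNMT1 and UHRF1, which are most abundant in dividing cells. All 11 were tested and 0 passed, with a median change of 0.01. On both days 3 were higher and 4 lower, against 24.8% and 21.8% of the table. MCM4, a helicase subunit, was at 74.5 and 54.9 TPM with the SNHG26 guides and 92.3 and 126 TPM with control guides, a change of -0.75 (SE 0.29) with a limma adjusted p of 0.935. RRM2, a ribonucleotide reductase subunit, had the highest change of those averaging 5 TPM or more, 0.41 (SE 0.27), while SLBP, below that level, was at 0.57.

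Germline genes that promoter methylation keeps silent in somatic cells gave few values. Of 18 on the list 7 had a row, 4 of these were listed at 0 TPM in every library, and only RPL10L reached the filter. RPL10L was listed at 0 and 25.4 TPM with the SNHG26 guides and at 10.4 and 26.1 TPM with control guides, which is 0, 3, 1 and 3 reads. It is an intronless copy of RPL10, so reads of RPL10 may be counted there. MAGEA4 and MAGEB2 were listed above 0 TPM only in the control library of day 3, at 0.967 and 1.48 TPM. That is at most 1.83 reads for MAGEA4 and 1 read for MAGEB2.

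**Figure D3:**
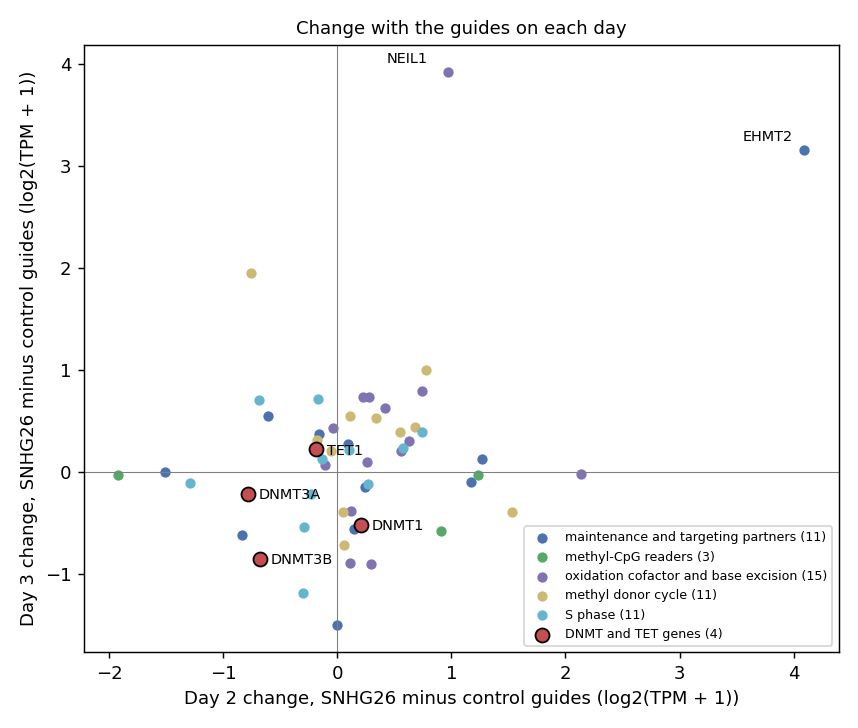
Change with the SNHG26 guides on day 2 (horizontal axis) and day 3 (vertical axis), each the difference of 1 SNHG26 and 1 control library on log2(TPM + 1), for DNMT3A, DNMT3B, DNMT1 and TET1 (large red points) and the tested genes of 5 lists. DNMT3A and DNMT3B lie below 0 on both axes, DNMT1 and TET1 on opposite sides of 0, and EHMT2 and NEIL1 stand apart at the top. The reads behind EHMT2 and NEIL1 may be few.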

How the data were processed

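Poly(A) RNA was primed with oligo-dT, amplified as cDNA for 14 cycles and read on nanopore flow cells, per the labels' protocols, which name no molecular identifiers. The authors deposited gene-level TPM in 1 table with 1 column per library. The submitters' processing notes name minimap2 2.24-r1122 and GRCh38. The counting tool, annotation and filters are not given in the sources used here. The members and lists were chosen with earlier results of these data known.

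The worth of a read was computed from the 13 mitochondrial mRNAs, whose values are whole multiples of a unit over gene length (0.653 to 0.803 TPM for 1 read on 10 kb). A value was called whole within 0.0001 read, and a sum over GENCODE release 29 spans matched within 1e-06 of its value. Those transcripts need not be the ones the authors counted. Intervals on reads cover counting error only, since amplified reads are not independent molecules.

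Genes averaging 1 TPM or more were tested as log2(TPM + 1), a scale on which changes of low genes look smaller, with limma 3.58.1 in R 4.3.3 (eBayes with a trend), Benjamini-Hochberg adjustment across all genes tested and a threshold of 0.05. The code was tested on data simulated at higher levels than those of the members, so that check does not cover them. The 2 libraries of each arm were fitted with no block. Libraries of the same day deviated from their arms with a correlation of 0.0464 (8274 genes), and a block on the other factor was an alternative. Others were leaving out each library, eBayes with no trend, quantile normalization, scaling by median ratios, pseudocounts of 0.1 and 5, and a filter at 5 TPM or none. Named beside the members were, per list, the gene of highest mean TPM and those with the highest and lowest guide change among genes averaging 5 TPM or more, and for each member with that mean the 2 genes of nearest pattern. Other list genes were named after their values were seen. Promoter windows are from RefSeq (GRCh38.p14), which held windows for 5 of the 6 members.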

Additional observations from a re-analysis of the deposited data

How the results depend on the processing

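Depth limits most of these values: UHRF1 rests on 1 to 3 reads, TET1 on 18 to 25, and for DNMT1 and DNMT3A the reads cannot be told from the TPM. Under alternatives 278 values were computed for single genes, the guide changes of the genes named by the rule and the day changes of the 5 members, and 0 of them passed an adjusted p of 0.05. Single genes were not followed in the crossed test, and alternatives whose filter drops a gene gave it no value. Between the guides 0 genes of the table passed in any of the 12 alternatives, with 170 to 681 at an unadjusted limma p under 0.05. DNMT3A ran from -0.54 to -0.38 and DNMT3B from -0.88 to -0.49 for the guides, with limma adjusted p-values from 0.873 to 0.994, and from -0.68 to -0.32 and -1.23 to -0.30 when a library was left out, nearest to 0 without the control library of day 2 for DNMT3A and without the SNHG26 library of day 3 for DNMT3B. The change of DNMT3B between days ran from -1.27 to -0.41 when a library was left out. Comparisons that left out a library had 1 library on a side, which limma assumes to vary like the pair.

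For the days the count fell from 3 genes to 0 under the replicate block, when any library was left out, with quantile normalization, without the filter or the eBayes trend, and at a pseudocount of 0.1 or 5. For the crossed test it went from 8 to 14 at a pseudocount of 0.1, to 13 with the filter at 5 TPM, and to 0 under the replicate block, when any library was left out, without the filter or the eBayes trend, and at a pseudocount of 5. The cause was not tested. The replicate block left 359 genes at an unadjusted p under 0.05 between the guides and changed no other call.

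The guide change of UHRF1 ran from 0.07 to 1.04 with the pseudocount. With a library left out GADD45A ran from 0.42 to 1.11 and RRM2 from 0.17 to 0.64. Of the 278 values 23 turned sign. TET1 became -0.0021 with median ratio scaling, and APEX1 -0.0528 with quantile normalization and -0.0290 with median ratio scaling. The rest came from leaving out a library. For the guides, the ranges were -0.38 to 0.0652 for DNMT1, -0.16 to 0.20 for TET1, -0.0874 to 0.24 for TRDMT1, -0.0765 to 0.29 for PCNA, -0.55 to 0.14 for CDCA7L, -0.39 to 0.73 for MBD4, -0.27 to 0.29 for APEX1, -0.79 to 0.00877 for GADD45B, -0.78 to 0.12 for MTHFD1 and -4.14 to 0.59 for RPL10L. Without the first control library MBD4 was -0.0145 and APEX1 -0.0664, without the second DNMT1 was 0.0652. Between the days they were -0.18 to 0.34 for DNMT1, -0.46 to 0.32 for DNMT3A and -0.19 to 0.11 for UHRF1.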
